A study of Mus musculus with 2 samples.

Results

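Apoe, Clu, Cst3 and the metallothionein genes Mt1, Mt2 and Mt3 were followed across the cell identities of the mouse dentate gyrus (DG), in fresh and in methanol (MeOH)-fixed cells. These 6 genes, of 15474 in the count table, were chosen by name as abundant glial RNAs that can also be found as free RNA in wells without an intact cell. Cells of the DG, the neurogenic region of the hippocampus, came from C57BL/6J mice aged 4 to 5 weeks and were sequenced by SORT-seq, a plate-based method that counts the 3′ ends of transcripts with unique molecular identifiers (UMIs). The fresh library was made from a pool of 3 mice, and dead cells were stained and left out at sorting. The MeOH-fixed library was made from a pool of 4 mice, whose cells were fixed, stored for 3 weeks, rehydrated and sorted without that stain. Each condition was 1 plate of 384 barcodes, of which 8 were empty control wells whose position was not used here. With 1 library per condition, plate, mice, stain and fixation cannot be told apart, and no test was made. Intervals are exact 95% intervals (Poisson for CPM, the UMIs of a gene per 1000000 UMIs, and Clopper-Pearson for percentages) and cover counting error only.

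In brain, apolipoprotein E (Apoe) and clusterin (Clu, also called apolipoprotein J) are secreted lipid carriers that are made mainly by astrocytes, and clusterin is also a chaperone outside cells. Cystatin C (Cst3) is a secreted inhibitor of cysteine proteases, among them many of the cathepsins. Metallothioneins are small, cysteine-rich proteins that bind zinc and copper: Mt1 and Mt2 are switched on by metals through the transcription factor MTF1, which binds metal response elements in their promoters, while Mt3 is found mostly in the nervous system and is not known for that response.

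The authors mapped to GRCm38, and positions are from GENCODE vM21 on the same build. Apoe lies on chromosome 7 from 19696109 to 19699188 (minus strand), Clu on chromosome 14 from 65968483 to 65981547 (plus strand), and Cst3 on chromosome 2 from 148871722 to 148875692 (minus strand). The 3 metallothionein genes lie in a row on the plus strand of chromosome 8, Mt3 from 94152607 to 94154146, Mt2 from 94172664 to 94173568 and Mt1 from 94179082 to 94180327, so that the group spans 27721 bp. Mt2 and Mt1 are 5514 bp apart. All 6 are protein-coding genes. The opposite strand of Mt2 also carries Gm45774, and since the use of strand in counting is not given in the sources used here, reads of both may have been counted together. The metallothionein transcripts share stretches of at most 27 bases, below the read length of 60 bases.

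The promoters of the metallothionein genes are printed because the 3 neighbours differed in their distribution over cell identities. Each run is 300 bases of the plus strand, from 250 bases before to 50 bases after the start in RefSeq (GRCm38.p6), with every match to the core of the metal response element in capitals. Searched on both strands were TGCACNC and TGCGCNC. Mt1 is chr8:94178839-94179138, Mt2 is chr8:94172368-94172667 and Mt3 is chr8:94152357-94152656.
Mt1: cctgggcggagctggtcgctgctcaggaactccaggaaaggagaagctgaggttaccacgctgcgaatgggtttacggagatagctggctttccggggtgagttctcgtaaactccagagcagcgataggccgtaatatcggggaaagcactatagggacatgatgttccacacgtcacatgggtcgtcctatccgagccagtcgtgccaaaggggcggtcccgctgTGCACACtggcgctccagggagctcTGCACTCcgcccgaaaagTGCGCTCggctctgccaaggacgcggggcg
Mt2: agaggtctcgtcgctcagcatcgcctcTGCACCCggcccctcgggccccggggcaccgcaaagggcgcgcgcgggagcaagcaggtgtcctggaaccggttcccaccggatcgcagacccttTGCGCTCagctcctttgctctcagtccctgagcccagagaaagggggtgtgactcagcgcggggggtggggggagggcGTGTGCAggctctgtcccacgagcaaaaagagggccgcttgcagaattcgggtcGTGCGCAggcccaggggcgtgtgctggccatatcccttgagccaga
Mt3: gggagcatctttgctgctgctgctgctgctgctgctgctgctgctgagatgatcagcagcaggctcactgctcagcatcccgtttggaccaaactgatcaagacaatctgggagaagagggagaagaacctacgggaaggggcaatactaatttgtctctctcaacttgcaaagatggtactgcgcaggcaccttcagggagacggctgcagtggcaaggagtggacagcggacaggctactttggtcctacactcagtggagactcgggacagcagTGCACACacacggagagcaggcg

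Mt1 held 3 matches and Mt2 held 4, of which 2 were on the minus strand, while Mt3 held 1. Of the 32851 mouse promoters of this length in the table, 25.7% held at least 1 match, 1.97% at least 3 and 0.517% at least 4. Promoters of 5 of the 6 genes were in the table, and those of Apoe and Cst3 held no match. The letters describe the windows only and are no evidence of binding in these cells.

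After the authors' filter, the fresh library kept 64 cells with 534122 UMIs (median 6318 per cell) and the MeOH-fixed library 132 cells with 729018 UMIs (median 3451.5 per cell). Together the 6 genes took 5706 UMIs or 1.07% of the fresh filtered cells' RNA and 5515 UMIs or 0.756% of that of the MeOH-fixed cells. Cell identities are the 8 deposited by the authors, who clustered both libraries together on their genes, so that levels between identities are a description. All 384 barcode numbers occur in both libraries, as they name wells of a plate, and 24 of them passed the filter in both. Summed marker genes of each identity were highest in the cells of that name in both libraries, except for those of neurons in the fresh library. There the immature neuron markers (led by Ncam1 and Rbfox3) had 1550 CPM in immature neurons but 1639 CPM in neural intermediate progenitor cells (nIPCs) and neuroblasts, and the 2 cells labelled mature neurons had no UMI of the 4 mature neuron markers (led by Tanc1 and Kcnip3). The MeOH-fixed mature neurons had 747 CPM of these markers beside 1283 CPM of the immature neuron markers. OPCs, the oligodendrocyte progenitor cells, had 4902 CPM of the myelin gene Mbp, an oligodendrocyte marker, in the fresh and 1801 CPM in the MeOH-fixed library, where oligodendrocytes had 7898 and 11002 CPM. Fresh cells labelled OPCs thus carried RNA of a marker of another identity at a high level, which goes against their name. Their own markers (led by Olig1 and Sox10) were at 7720 and 8492 CPM. Endothelial cells had 5875 and 5540 CPM of their own markers (led by Flt1 and Cldn5) and 3144 and 4616 CPM of mural cell markers (Vtn and Pdgfrb). In nIPCs and neuroblasts, their own markers (led by Sox11 and Calb2) were at 5844 and 3826 CPM. Over all filtered cells, the choroid plexus marker Kl had 1 and 6 UMIs and the ependymal marker Foxj1 had 3 in each library.

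Astrocytes and radial glia-like cells (RGLs, the stem cells of the DG), which the authors placed in 1 cluster, held over 50% of the UMIs of every member in both libraries. Their share of all UMIs was 20.5% in the fresh and 11.1% in the MeOH-fixed library, whereas they held 91.8% and 80.3% of the Apoe UMIs, 95.1% and 87.6% of the Clu UMIs, 89.9% and 74.0% of the Mt1 UMIs and 93.6% and 87.5% of the Mt2 UMIs. For Mt3 these shares were 73.0% and 50.7%, with immature neurons as the next largest holder at 23.0% and 32.4%. Immature neurons held 18.0% and 41.4% of all UMIs, so their Mt3 share was near that in the fresh and below it in the MeOH-fixed library. Cst3 was divided: astrocytes and RGLs held 53.4% and 62.1% of its UMIs, and microglia held 40.7% and 21.5%.

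In the single astrocytes and RGLs, the lipid carriers were found throughout. Apoe had 12348 CPM (11699 to 13024) over the 18 fresh cells, with a lowest cell at 3378, a median at 10169 and a highest at 24491 CPM. Over the 29 MeOH-fixed cells it had 16959 CPM (16073 to 17882), with a lowest cell at 3352, a median at 14960 and a highest at 33565 CPM. Every astrocyte or RGL of both libraries thus had Apoe, and the ranges of the cells overlapped widely between the libraries. Clu had 6343 CPM (5880 to 6832) in the fresh cells, from 0 to 15625 CPM per cell. The MeOH-fixed level was 8213 CPM (7600 to 8863), from 559 to 15219 CPM per cell. A single fresh cell lacked Clu.

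Cst3 reached 12804 CPM (12143 to 13492) in fresh astrocytes and RGLs, from 3504 to 27435 CPM per cell. In the MeOH-fixed cells it reached 14953 CPM (14121 to 15820), from 1905 to 38935 CPM per cell. Microglia exceeded these levels in both libraries, with 23099 CPM (21736 to 24525) over 10 cells of the fresh library. The 7 cells of the MeOH-fixed library had 28422 CPM (25762 to 31282). For Cst3 the order was therefore microglia, then astrocytes and RGLs, then endothelial cells, each apart from the next by its interval, except that the MeOH-fixed endothelial cells overlapped with OPCs.

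**Figure D1:**
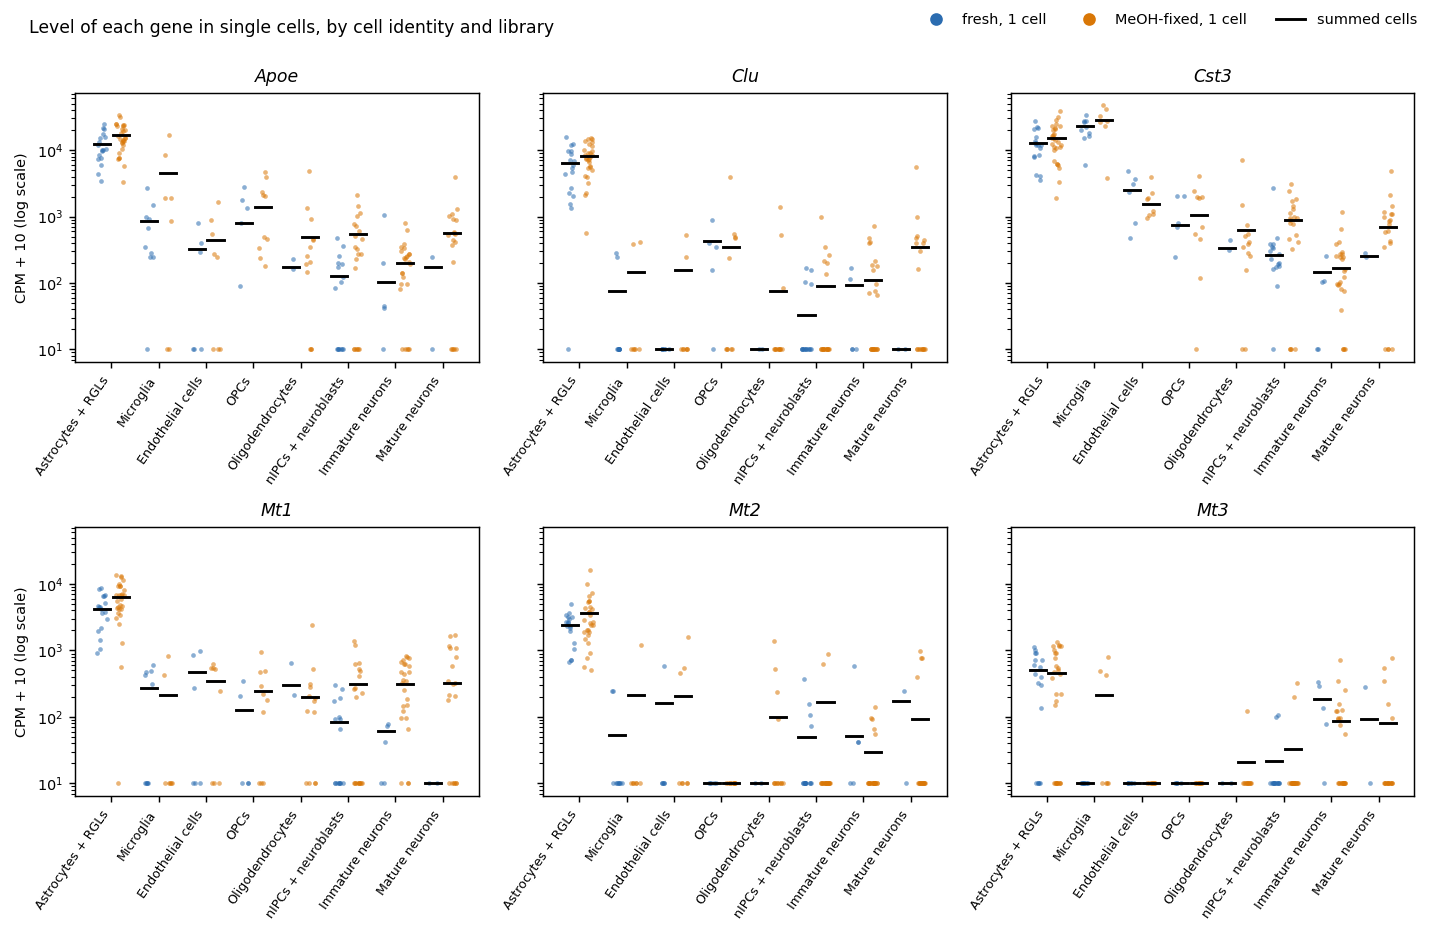
Level of each of the 6 genes in every filtered cell, as CPM + 10 on a log scale, by cell identity; each point is 1 cell (blue fresh, orange MeOH-fixed) and each bar is the summed level of the cells. Astrocytes and RGLs stand above the other identities for Apoe, Clu, Mt1 and Mt2, microglia stand highest for Cst3, and points at 10 are cells without a UMI of the gene.

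Mt1 had 4226 CPM (3849 to 4629) in fresh and 6454 CPM (5912 to 7033) in MeOH-fixed astrocytes and RGLs, with cells from 899 to 8606 and from 0 to 13528 CPM. Mt2 had 2419 CPM (2136 to 2728) and 3630 CPM (3226 to 4070), with cells from 652 to 4955 and from 507 to 16000 CPM. Both genes were found together in 18 of 18 fresh and 28 of 29 MeOH-fixed cells of this identity. Mt3 was sparser, with 493 CPM (370 to 643) and 446 CPM (312 to 617), and had a UMI in 13 of 18 and 19 of 29 cells. All 6 genes were found together in 13 fresh and 19 MeOH-fixed astrocytes and RGLs, in 1 immature neuron of each library and in no other cell.

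Below astrocytes and RGLs, the order of identities was mostly within counting error. Apoe in MeOH-fixed cells was the clearest case, with microglia at 4556 CPM apart from OPCs at 1372 CPM, and these apart from mature neurons at 560 CPM. In fresh cells microglia (841 CPM) and OPCs (794 CPM) overlapped for Apoe. OPCs came second for Clu, with 417 CPM in fresh and 343 CPM in MeOH-fixed cells, and were apart from the next identity only in fresh cells. These levels were uneven: 2 fresh OPCs held 10 and 9 of 21 Clu UMIs, and 1 MeOH-fixed OPC held 8 of 16. Mt1, Mt2 and Mt3 had overlapping intervals among all neighbours below the first, and Mt3 in MeOH-fixed astrocytes and RGLs also overlapped with microglia, where it rested on 3 UMIs. Endothelial cells were second for Mt1 in both libraries, with 464 and 340 CPM from 9 and 7 UMIs.

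Some identities had no UMI of a metallothionein. OPCs had neither Mt2 nor Mt3 in 5 fresh and 10 MeOH-fixed cells, where the upper limits of the intervals were 73.2 and 79.1 CPM, although they had 6 and 11 UMIs of Mt1. Endothelial cells had no Mt3 in 6 and 8 cells, with upper limits of 190 and 179 CPM, and fresh microglia had none in 10 cells, with an upper limit of 79.6 CPM. These limits are below the Mt2 and Mt3 levels of astrocytes and RGLs in the same library.

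As counts of 3′ ends are not divided by length here, the genes were compared with one another only by their make-up, that is the percentage of the 6-gene UMIs that each took. In astrocytes and RGLs Apoe took 32.0% of 4233 UMIs in the fresh and 33.5% of 4089 UMIs in the MeOH-fixed cells, Clu 16.4% and 16.2%, Cst3 33.1% and 29.5%, and Mt1 10.9% and 12.7%. In microglia Cst3 took 95% of 1127 UMIs and 84.3% of 496 UMIs, and Apoe took 3.46% and 13.5%. Immature neurons, with 56 and 255 UMIs in all, had another make-up. Mt3 took 30.4% (18.8 to 44.1) of theirs in the fresh and 9.02% in the MeOH-fixed library, and Mt1 took 8.93% and 35.7% (29.8 to 41.9).

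**Figure D2:**
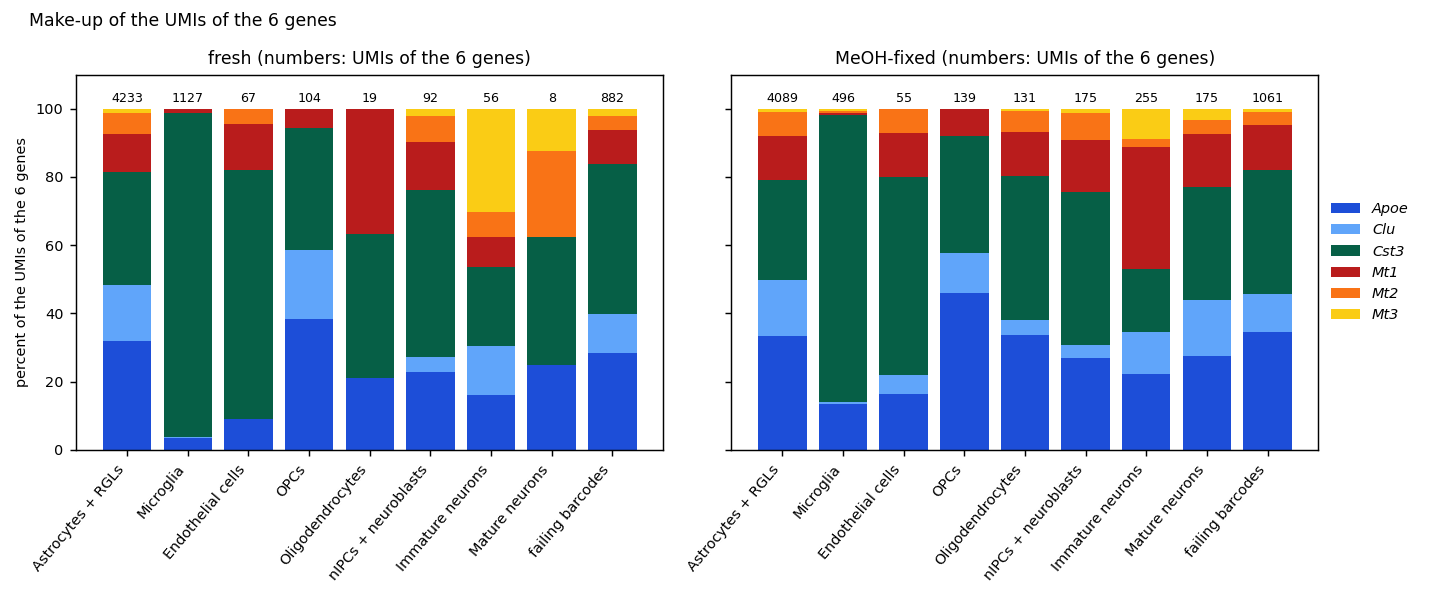
Percentage of the UMIs of the 6 genes that each gene took, by cell identity and in the failing barcodes, in the fresh (left) and MeOH-fixed library (right), with the number of UMIs above each bar. Cst3 fills 95% of the bar of fresh and 84.3% of MeOH-fixed microglia, Mt1 fills 35.7% of that of MeOH-fixed immature neurons, and bars on 19 UMIs or fewer are coarse.

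The proportion of Mt1 and Mt2 in astrocytes and RGLs had overlapping intervals in both libraries. Mt2 made up 36.4% (32.9 to 40.0) of their joint UMIs in the fresh and 36.0% (32.7 to 39.4) in the MeOH-fixed library. Among nIPCs and neuroblasts, 1 MeOH-fixed cell held 11 of the 14 Mt2 UMIs. Mt2 made up 35.0% (15.4 to 59.2) of 20 fresh and 34.1% (20.1 to 50.6) of 41 MeOH-fixed joint UMIs of this identity. In MeOH-fixed immature neurons it made up 6.19% (2.30 to 13), or 6 of 97 UMIs, an interval below that of astrocytes and RGLs of the same library, and 17 of these 25 cells had Mt1 without Mt2. Only 4 and 5 UMIs stood behind Mt2 and Mt1 in fresh immature neurons. Cell by cell, log2 levels (CPM + 100) of Mt1 and Mt2 had a Pearson correlation of 0.62 over 18 fresh and 0.26 over 29 MeOH-fixed astrocytes and RGLs, all from 1 library each, and those of Apoe and Clu had 0.49 and 0.56.

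Shares of cells with a UMI were lower when depth was made equal. Of the fresh cells, 79.7% had an Apoe UMI, as did 81.8% after fixation, but these shares were 45.3% and 46.8% after every cell was thinned to 800 UMIs, for which none was too shallow. In immature neurons, with median depths of 28791 and 11563 UMIs, Apoe was found in 80.0% of cells in both libraries, and thinning left 20.4% and 15.1%. Most of this fresh share came from 1 cell of 971 UMIs with 1 Apoe UMI. In astrocytes and RGLs, with median depths of 5830 and 2196 UMIs, thinning left 99.6% and 99.9% for Apoe, 88.5% and 96.8% for Clu, 90.5% and 92.5% for Mt1, 80.7% and 86.7% for Mt2, and 28.5% and 30.6% for Mt3. Immature neurons retained 2.61% and 24.4% for Mt1, 9.08% and 1.27% for Mt2 and 12.2% and 6.28% for Mt3. All genes stood higher in astrocytes and RGLs than in the neurons by this measure.

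To see whether the 6 genes differed between conditions, their CPM in MeOH-fixed cells was set against that in fresh cells. Over all filtered cells, none of the 6 differed by 2-fold or more in CPM, a size that 19.6% of 8804 genes reached. Genes with at least 20 UMIs over both sides were counted as tested, which here means set against 2-fold. Cst3 came nearest, with 4922 CPM in the fresh and 2665 CPM in the MeOH-fixed library, a log2 ratio of -0.89 (-0.97 to -0.80). Apoe had 2760 and 2339 CPM (log2 ratio -0.24), Clu 1369 and 1038 CPM (-0.40), Mt1 964 and 966 CPM (0.00), Mt2 530 and 460 CPM (-0.21, interval -0.44 to 0.03) and Mt3 139 and 97.4 CPM (-0.51). The mix of cells differed beside this: microglia were 15.6% of fresh and 5.30% of MeOH-fixed cells, astrocytes and RGLs 28.1% and 22.0%, and their summed markers had log2 ratios of -1.94 and -0.75. With the same weight for each of the 8 identities, all 6 ratios were above 0, from 0.12 for Mt3 to 0.76 for Apoe. With spike-in counts in place of the total, Cst3 was at -1.36, past 2-fold. Such a change of total shifts the ratios of all genes by the same amount. The share of all genes past 2-fold is not given for it, so this is no result about Cst3 alone.

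Within astrocytes and RGLs, 5 of the 6 genes were higher in the MeOH-fixed cells by less than 2-fold. The log2 ratio was 0.46 (0.35 to 0.57) for Apoe, 0.37 (0.22 to 0.53) for Clu and 0.22 (0.11 to 0.34) for Cst3. It was 0.61 (0.43 to 0.79) for Mt1 and 0.59 (0.34 to 0.83) for Mt2, and Mt3 had -0.14 (-0.79 to 0.49). None of the 6 was past 2-fold, which 19.2% of 1289 genes were, and the median of these genes was 0.08. Summed astrocyte markers (led by Slc1a2 and Aldoc) were 29104 and 29633 CPM in these cells, a log2 ratio of 0.03. The ratios of the 5 genes exceeded this summed ratio but not that of every marker. Of the 10 markers, 3 were higher and 7 lower in the MeOH-fixed cells. Past 2-fold on the higher side was 1 marker, as were 10.2% of all 1289 genes. Aqp4 was at 785 and 1610 CPM and Gja1 at 1415 and 2180 CPM.

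**Figure D3:**
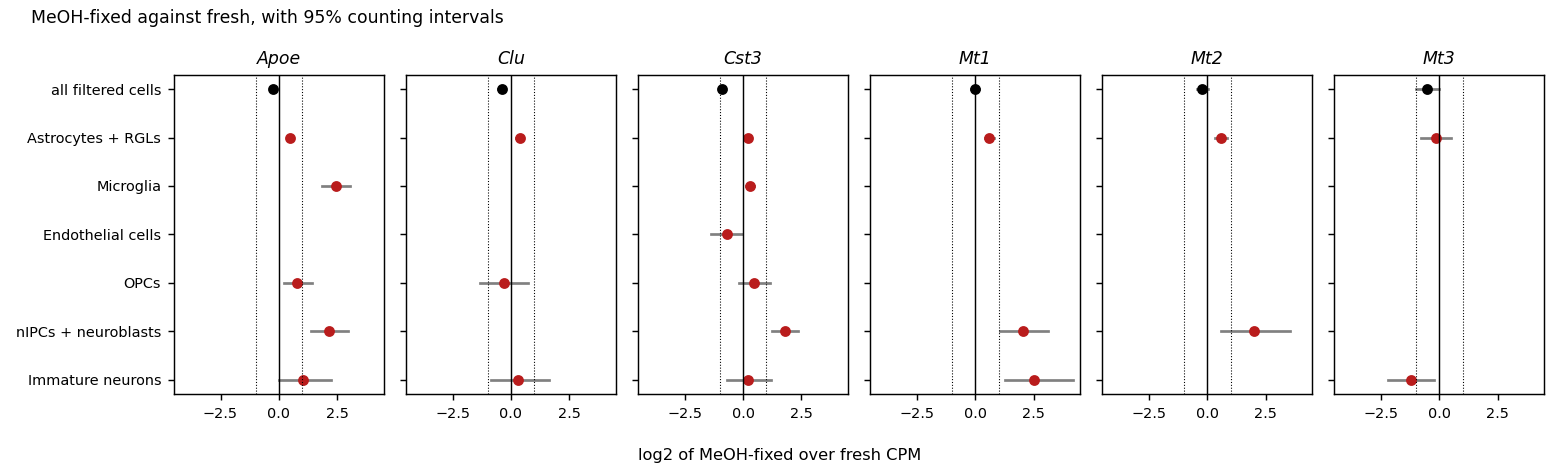
Log2 ratio of MeOH-fixed over fresh CPM for each gene, over all filtered cells (black) and within 6 cell identities (red), for genes with at least 20 UMIs; bars are exact 95% counting intervals and dotted lines mark 2-fold. Cst3 lies at -0.89 over all cells and at 0.22 within astrocytes and RGLs, and the points beyond 2-fold lie in microglia, nIPCs and neuroblasts, and immature neurons.

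Apoe in microglia, the resident macrophages of the brain, was 841 CPM (598 to 1150) from 39 UMIs in the fresh and 4556 CPM (3531 to 5786) from 67 UMIs in the MeOH-fixed library, a log2 ratio of 2.44 (1.85 to 3.05). It was 1 of 2 members tested that were past 2-fold in microglia, where 29.3% of 460 genes were. The cells were uneven. In the MeOH-fixed library 1 of the 7 cells held 35 of the 67 Apoe UMIs, and another held 21. The former cell also held all 14 UMIs of the border macrophage markers found in filtered cells (11 of Mrc1 and 3 of Pf4), and had 3793 CPM of Cst3, while the other 6 cells had 23430 to 46948 CPM. Its summed microglial markers, at 18492 CPM, lay just under the range of the others, 18624 to 42201 CPM. Without this cell, which was looked at after its values were seen, Apoe was 2540 CPM (1737 to 3586) from 32 UMIs, with a log2 ratio of 1.59, and Cst3 was 32545 CPM with a ratio of 0.49 in place of 0.30. In the fresh library 1 of 10 cells held 18 of the 39 Apoe UMIs, and none had a UMI of Mrc1 or Pf4. Astrocyte markers were 776 CPM in fresh and 1088 CPM in MeOH-fixed microglia.

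**Figure D4:**
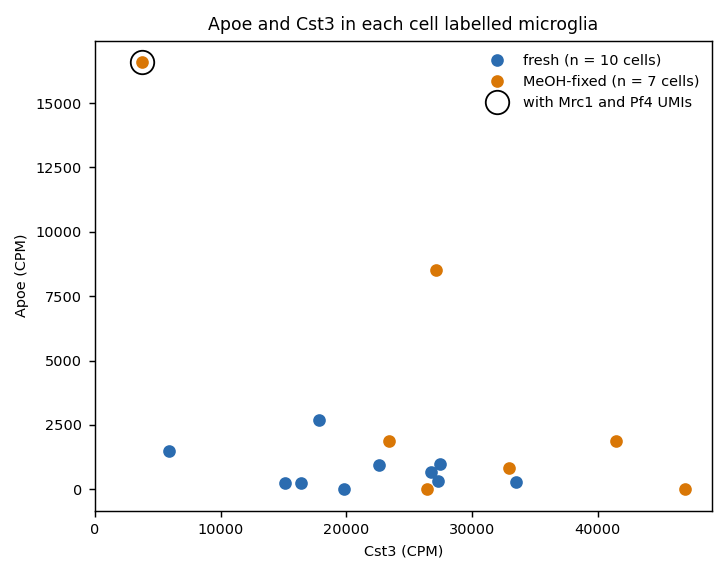
Apoe (vertical) against Cst3 (horizontal), both in CPM, in each of the 10 fresh (blue) and 7 MeOH-fixed (orange) cells labelled microglia; the ring marks the cell with Mrc1 and Pf4 UMIs. That cell lies apart from the rest at 16596 CPM of Apoe and 3793 CPM of Cst3.

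In nIPCs and neuroblasts, the dividing and newborn cells of the granule neuron lineage, the 4 genes with enough UMIs were all higher in MeOH-fixed cells by more than 2-fold, where 24.1% of 2582 genes were past 2-fold and 9.99% were so on the higher side. Apoe was 119 CPM from 21 UMIs over 16 fresh cells and 534 CPM from 47 UMIs over 21 MeOH-fixed cells, a log2 ratio of 2.16 (1.39 to 2.98). Cst3 was 256 and 885 CPM (1.79, 1.24 to 2.35), Mt1 74.0 and 307 CPM (2.05, 1.05 to 3.13), and Mt2 39.8 and 159 CPM (2.0, 0.59 to 3.55). A single MeOH-fixed cell held 11 of the 14 Mt2 UMIs. Without the cell with most UMIs in each library the Mt2 ratio was 1.13, resting on 3 UMIs in each, and as the mean CPM of each cell it was 0.76, which is under 2-fold. Summed astrocyte markers in these cells were 711 CPM in the fresh and 1317 CPM in the MeOH-fixed library, and the median depth was 11468.5 and 3873 UMIs per cell. Their part in the result was not tested. Clu had 4 and 7 UMIs and Mt3 had 2 in each library.

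Immature neurons had Mt1 at a higher and Mt3 at a lower level in the MeOH-fixed library. Mt1 was 52.0 CPM (16.9 to 121) from 5 UMIs in 5 fresh cells. After fixation it was 301 CPM (243 to 370) from 91 UMIs in 25 cells, a log2 ratio of 2.53 (1.26 to 4.19). It was spread over 22 of the 25 MeOH-fixed cells, with at most 12 UMIs in 1 cell. Mt3 was 177 CPM (103 to 283) from 17 UMIs in the fresh and 76.2 CPM (48.3 to 114) from 23 UMIs in the MeOH-fixed cells, a ratio of -1.22 (-2.18 to -0.22), but 10 of the 17 fresh UMIs came from 1 cell. Without the cell with most UMIs in each library the Mt3 ratio was -0.60, and as the mean CPM of each cell -0.91, neither past 2-fold. Mt2 had 4 and 6 UMIs. Apoe had 93.7 and 189 CPM, a ratio of 1.01 (-0.01 to 2.21) that turned to -0.31 when the CPM of each cell was averaged. In that average, 1 fresh cell of 971 UMIs stood at 1030 CPM from 1 Apoe UMI, and the next highest fresh cell at 190 CPM. Clu (0.30) and Cst3 (0.20) had intervals that held 0. By the mean over cells, however, Cst3 was at 1.27 and Clu was also past 2-fold, both on the higher side. In these cells 3 of 5 members tested were past 2-fold, beside 21.1% of 4029 genes. Among the 3, Mt3 was so only with the fresh cell of 10 Mt3 UMIs included, and Apoe not as a mean over cells. Of all genes tested, 13.9% were higher and 7.12% lower past 2-fold. Astrocyte markers were at 219 and 305 CPM, and Mt3 was 77.3% (54.6 to 92.2) of the joint Mt3 and Mt1 UMIs in the fresh and 20.2% (13.2 to 28.7) in the MeOH-fixed cells.

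The other identities gave few counts. In endothelial cells, Cst3 was 2525 CPM from 49 UMIs in the fresh and 1555 CPM from 32 UMIs in the MeOH-fixed cells, a log2 ratio of -0.70 (-1.39 to -0.03), and as the only member tested it was not past 2-fold, as 33.8% of 225 genes were. In OPCs none of the 3 members tested was past 2-fold, as 29.3% of 805 genes were: Apoe was at 794 and 1372 CPM (0.79, 0.20 to 1.40), Clu at 417 and 343 CPM (-0.28) and Cst3 at 734 and 1029 CPM (0.49). Only 2 fresh cells each were oligodendrocytes and mature neurons, so that values alone are given. MeOH-fixed oligodendrocytes (13 cells) had 485 CPM of Apoe and 606 CPM of Cst3. MeOH-fixed mature neurons (19 cells) had 560 CPM of Apoe, 338 CPM of Clu, 677 CPM of Cst3 and 315 CPM of Mt1. Of the 29 Clu UMIs in these mature neurons, 13 came from 1 cell.

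Barcodes that failed the filter were examined for the same genes. They were 320 in the fresh library, with a median of 168 UMIs and 40.9% mitochondrially encoded RNA, and 252 in the MeOH-fixed library, with a median of 191.5 UMIs and 28.8%, against 13.9% and 10.2% in passing cells. The 6 genes took 882 UMIs or 0.629% of the fresh and 1061 UMIs or 1.27% of the MeOH-fixed failing RNA. Failing barcodes thus held 13.4% of the library's 6-gene UMIs but 20.8% of all its UMIs in the fresh plate, and 16.1% against 10.3% in the MeOH-fixed plate.

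In the MeOH-fixed library, Apoe was 2339 CPM in passing and 4387 CPM in failing barcodes, a log2 ratio of 0.91 (0.74 to 1.07). Cst3 was 2665 and 4614 CPM (0.79), Mt1 966 and 1662 CPM (0.78), Clu 1038 and 1399 CPM (0.43), Mt2 460 and 502 CPM (0.13) and Mt3 97.4 and 120 CPM (0.30), the last 2 with intervals that held 0. The median of all 6818 genes tested was -1.23, so that every member lay above it, at percentiles of 89.2 to 97.0. No member was past 2-fold, while 60.5% of genes were: 2.57% of all genes were higher and 58% lower in failing barcodes. Summed astrocyte markers had a ratio of 0.46 and microglial markers one of 0.93 in the same comparison. The direction depended on summing UMIs over barcodes. As the mean CPM of barcodes with at least 50 UMIs, the ratio was 0.068 for Apoe and below 0 for the other 5 genes, with -1.0 for Clu, -0.57 for Cst3, -0.11 for Mt1, -0.84 for Mt2 and -0.89 for Mt3, and in barcodes under 800 transcripts Clu was at -0.20. With mitochondrially encoded genes left out of the total, the sums of Apoe (1.24), Cst3 (1.13) and Mt1 (1.12) were past 2-fold. With this total, 4.07% of 6803 genes were 2-fold higher and 47.1% were 2-fold lower, and the median was -0.90.

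In the fresh library the ratios of all members but Mt3 had intervals below 0, where the median of 5959 genes was -0.76 and 45.1% were past 2-fold. Apoe was 2760 CPM in passing and 1791 CPM in failing barcodes (-0.62), Clu 1369 and 713 CPM (-0.94), Cst3 4922 and 2761 CPM (-0.83), Mt1 964 and 635 CPM (-0.60), Mt2 530 and 264 CPM (-1.01) and Mt3 139 and 128 CPM (-0.11, interval -0.94 to 0.65). Mt2 alone was past 2-fold. A single failing barcode, removed by the upper limit of 35000 transcripts, held 44514 UMIs or 31.8% of the fresh failing RNA, but only 30 of the 882 UMIs of the 6 genes. With mitochondrially encoded genes left out and this barcode kept, the median was -0.23, with Clu (-0.40), Cst3 (-0.29) and Mt2 (-0.46) below it and Apoe (-0.080), Mt1 (-0.059) and Mt3 (0.43) above it. Without the barcode, which was tried after the values were seen, the ratios were -0.08 (-0.28 to 0.11) for Apoe, -0.48 for Clu, -0.30 for Cst3, -0.19 for Mt1, -0.49 for Mt2 and -0.41 for Mt3, beside a median of -1.52. When mitochondrially encoded genes, 56.2% of the remaining failing RNA, were also left out, all 6 ratios were above 0, with Apoe at 0.89 (0.69 to 1.09), Mt1 at 0.79 and Cst3 at 0.67, beside a median of -0.54.

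**Figure D5:**
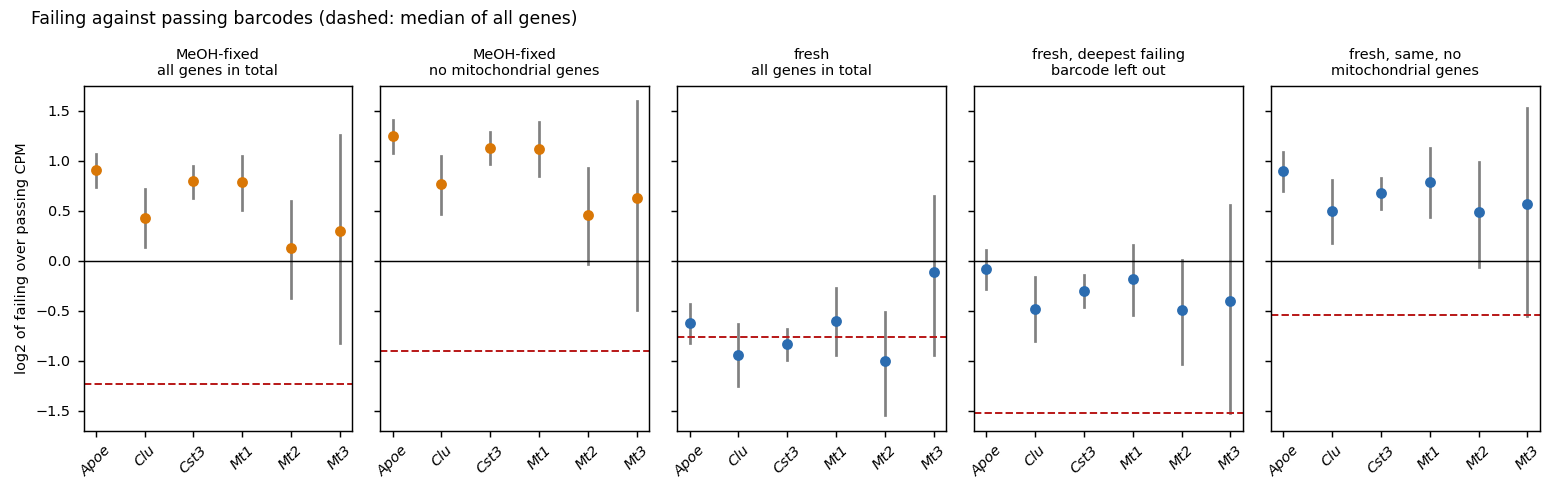
Log2 ratio of failing over passing CPM for the 6 genes in the MeOH-fixed (orange) and fresh library (blue), with exact 95% counting intervals; the dashed line is the median of all genes tested, and panels differ in the total and in whether the fresh barcode with 44514 UMIs is included. The 6 genes lie above the median of all genes in every panel but that of fresh barcodes with all genes and barcodes included, where they lie on both sides of -0.76; fresh barcodes without mitochondrially encoded genes but with all barcodes are not plotted.

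The make-up of the 6 genes in failing barcodes was set beside that of passing cells of the same library. Apoe took 28.5% of their UMIs in the fresh and 34.6% in the MeOH-fixed plate (passing cells 25.8% and 30.9%), Cst3 43.9% and 36.4% (46.1% and 35.2%), Clu 11.3% and 11% (12.8% and 13.7%) and Mt1 10.1% and 13.1% (9.03% and 12.8%). Mt2 made up 29.4% (21.6 to 38.1) of the joint Mt1 and Mt2 UMIs in fresh and 23.2% (17.3 to 30.0) in MeOH-fixed failing barcodes. Over all passing cells Mt2 made up 35.5% (32.1 to 38.9) and 32.2% (29.4 to 35.2), intervals that overlap those of the failing barcodes. The MeOH-fixed failing interval lies below only that of MeOH-fixed astrocytes and RGLs taken alone, which is 32.7 to 39.4.

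Apoe was not evenly spread over the failing barcodes. It was found in 97 fresh and 94 MeOH-fixed barcodes, of 320 and 252, and 50% or more of its UMIs lay in just 7 and 9 of these. Single Apoe UMIs were seen in 70 and 42 barcodes, and the highest barcode held 24 and 36. Mt1 was found in 30 and 58 failing barcodes and Clu in 32 and 45. Where failing barcodes had a UMI of an astrocyte marker but none of a microglial marker (96 fresh and 88 MeOH-fixed barcodes), Apoe was at 3025 and 5026 CPM. It was at 1379 and 2255 CPM in the 172 and 136 barcodes with neither. In the 20 and 16 barcodes with both, Apoe was at 1228 and 7673 CPM and Cst3 at 1303 and 14363 CPM. The fresh ones held the barcode of 44514 UMIs and 52945 UMIs in all. Cst3 was at 12720 CPM in the 32 fresh and 5078 CPM in the 12 MeOH-fixed barcodes with microglial markers only. How much RNA is free and how much is from broken cells in these wells cannot be told apart.

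The genes most alike to each member were sought over the 16 profiles of identity and library (Pearson r of log2(CPM + 10), among 1022 genes with at least 200 UMIs). These profiles share 2 libraries and range from 2 to 29 cells, so that r is a description. Apoe was most like Aldoc (0.90), a glycolytic enzyme of astrocytes, the glutamate transporter Slc1a3 (0.87) and Cst3 (0.83). Clu was most like the peptide-processing enzyme Cpe (0.88), glutamate dehydrogenase Glud1 (0.88) and Aldoc (0.88). Cst3 was most like the matrix protein gene Sparc (0.84), Apoe (0.83) and selenoprotein P, Sepp1 (0.81). For Mt1 the list was mtNd2 (0.83), a mitochondrially encoded subunit of complex I, Ntsr2 (0.82) and Fam107a (0.80), and for Mt2 it was the gap junction gene Gja1 (0.87), the water channel Aqp4 (0.86) and Hopx (0.85). Mt3 had the lowest values, with the glutamate transporter Slc1a2 (0.69), Mt2 (0.69) and Hopx (0.68). Mt1 and Mt2 had an r of 0.58, and Cst3 and Mt3 one of 0.25. For Mt3 none of the 3 genes was among the first 3 by Spearman's rho or with log2(CPM + 1).

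Genes that act with the members were counted over all filtered cells, where 10.6% of all genes were 2-fold higher and 9% 2-fold lower in the MeOH-fixed library, with a median log2 ratio of 0.09. Of the apoE receptors and their partners, 11 of 12 were tested, 1 was higher and 4 were lower past 2-fold, and the median was -0.32. The mix of cells differed between the libraries, with microglia at 8.68% of fresh and 2.02% of MeOH-fixed UMIs. Its part in this count was not tested. Sort1, the sorting receptor sortilin, was 219 CPM in the fresh and 274 CPM in the MeOH-fixed cells, and Lrp1, a large endocytic receptor for apoE, was 264 and 214 CPM. Lrp1 was 476 CPM in fresh and 1480 CPM in MeOH-fixed OPCs and 712 and 476 CPM in microglia. Lrpap1, the chaperone of that receptor family, was 170 and 134 CPM.

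Of the lipidation and sterol genes, 14 of 17 were tested, with 2 higher, 1 lower and a median of -0.29. Abca1, the transporter that loads lipid onto apoE, was 198 and 59.0 CPM over all cells and 353 and 34.1 CPM in nIPCs and neuroblasts. Apod, another lipid carrier, was 161 and 213 CPM, and Hmgcs1, an enzyme of cholesterol synthesis, was 185 and 150 CPM.

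Among the cathepsins and cystatins, 12 of 16 were tested, none was higher and 6 were lower, with a median of -0.82. This list is wider than the cysteine proteases that cystatin C inhibits, as cathepsin D is not one of them. Ctsd, cathepsin D, was 489 and 196 CPM over all cells but 4270 and 4284 CPM in microglia, whose share of UMIs was 8.68% in the fresh and 2.02% in the MeOH-fixed library. Ctsb was 541 and 545 CPM and Ctsl was 236 and 173 CPM. Within microglia 9 of the list were tested, 1 was higher and none lower past 2-fold, and the median was 0.00. Of all 460 genes tested there, 10.7% were higher and 18.7% lower past 2-fold.

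Of the zinc handling genes, 18 of 22 were tested, 1 was higher and none was lower, with a median of -0.03. The gene with most UMIs, Slc30a3, which loads zinc into synaptic vesicles, was 73.0 and 130 CPM over all cells and 406 and 262 CPM in immature neurons, which held all 39 of its fresh UMIs. The zinc importer Slc39a6 was at 101 and 96.0 CPM, and Slc39a10, another importer, at 84.3 and 98.8 CPM. In astrocytes and RGLs only 2, 6, 6 and 2 genes of the receptor, lipidation, cathepsin and zinc lists had enough UMIs, and 1 lipidation gene was past 2-fold, on the higher side.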

How the data were processed

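SORT-seq libraries of 1 fresh and 1 MeOH-fixed pool of DG cells were analysed. The authors mapped the reads with STAR (version not given in the sources used here) to GRCm38, discarded multi-mapping reads and collapsed reads with the same UMI. The deposited files give expected counts from before and after filtering, in which the authors had corrected the number of UMIs for the 4096 that are possible. Per the submitters' processing notes, R 4.2.0 and Seurat 4.1.0 were used. Barcodes passed the filter with 800 to 35000 transcripts, over 500 genes, over 500 spike-in counts and over 1.2 transcripts per gene. Identities and spike-in counts were used as deposited.

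The adjustment of the expected counts deposited by the authors was inverted, which gave whole UMIs (tolerance 1e-06, largest distance 3.64e-12), and filtered and unfiltered counts did not differ. UMIs were summed per library and identity as CPM of all genes. Log2 ratios have exact conditional binomial intervals at 95%, and genes with at least 20 UMIs over both sides were tested against 2-fold. On data simulated as Poisson counts of 8804 genes over all filtered cells, 99% of 200 genes changed 4-fold were called. Of unchanged genes 3.18% were called, and 96.2% of the intervals held the true value. As the intervals assume the same model, this checks the calculation only. Spread between cells, mice and libraries was not simulated, nor were single identities, so that 3.18% is no rate of false calls in these data. Cells were also thinned to 800 UMIs. As each condition is 1 library, there are no p-values and no standard errors. No doublet caller was run, while the upper transcript limit of the filter left out 1 fresh barcode.

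The members, the 4 lists of pathway genes and the 12 lists of cell type markers were chosen with earlier results of these data known. Named are the 6 members, the 3 pathway genes per list and 2 markers per list with the most UMIs, and the 3 genes most alike to each member. Some of these markers are not reported here. Alternatives were the expected counts as deposited, spike-in counts as the total, totals without mitochondrially encoded genes (37) or without Rn45s, equal weight per identity, means and medians per cell, leaving out the cell or barcode with most UMIs of a gene, depth limits for failing barcodes, other count minimums, 1.5-fold, and other measures of likeness. Mt4 and other list genes without a place in the table were not analysed here. Python 3.11.15 was used with scipy 1.17.1 for intervals, pandas 2.3.3, numpy 2.4.6 and, for figures, matplotlib 3.10.9.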

Additional observations from a re-analysis of the deposited data

Results flagged for a closer look

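Cst3 was marked because its difference between the libraries took opposite directions in cell identities. The log2 ratio of MeOH-fixed over fresh CPM was -0.70 (-1.39 to -0.03) in endothelial cells, from 49 and 32 UMIs. It was 0.22 in astrocytes and RGLs, 0.30 in microglia and 1.79 in nIPCs and neuroblasts. Each of these intervals excludes 0 for counting error, and whether the differences between identities exceed the spread between libraries was not tested, as there is 1 library per condition.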

How the results depend on the processing

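No paired analysis was possible because the conditions have 1 library each and share fewer than 2 replicate numbers. For the same reason no replicate was left out. The deposited expected counts, a total without Rn45s and leaving out the cell with most UMIs of a gene kept the direction of each ratio over all filtered cells except that of Mt1, which was 0.00 and lay on either side of 0. The cause of the shifts below was not tested.

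Over all filtered cells, the log2 ratios of Apoe, Clu, Cst3, Mt1, Mt2 and Mt3 were 0.76, 0.44, 0.27, 0.61, 0.61 and 0.12 with equal weight per identity, and 0.20, 0.10, -0.42, 0.32, 0.35 and 0.020 as means of the CPM of each cell. With spike-in counts as the total, the first 5 were -0.72, -0.87, -1.36, -0.47 and -0.68. In immature neurons the mean of the CPM of each cell reversed Apoe to -0.31 and moved Cst3 to 1.27. For Apoe, 1 fresh cell of 971 UMIs entered this mean at 1030 CPM from 1 UMI. The median CPM of astrocytes and RGLs was 10169 for Apoe, 5688 for Clu and 11912 for Cst3 in the fresh library, and 14960, 7553 and 14118 after fixation, where Mt2 had 2655. Thinning to 800 UMIs left shares of cells with a UMI of 45.3%, 28.3%, 62.9%, 33.3%, 25.7% and 9.53% in the fresh and 46.8%, 30.3%, 56.2%, 37.7%, 24.4% and 10.4% in the MeOH-fixed library, in the order of genes above.

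For failing against passing barcodes without mitochondrially encoded genes, Apoe, Clu, Cst3 and Mt1 were -0.080, -0.40, -0.29 and -0.059 in the fresh and 1.24, 0.76, 1.13 and 1.12 in the MeOH-fixed library, and fresh Mt2 was -0.46. Without the fresh barcode of 44514 UMIs (chosen after seeing the data), Apoe, Clu, Cst3, Mt1 and Mt2 were -0.084, -0.48, -0.30, -0.19 and -0.49, and 0.89, 0.50, 0.67, 0.79 and 0.48 when mitochondrially encoded genes were left out too, so that all 5 turned from below to above 0, Mt2 with an interval of -0.06 to 0.99. With only barcodes under 800 transcripts, fresh Clu, Cst3 and Mt1 were -1.37, -0.41 and -1.51, and MeOH-fixed Apoe and Clu were 0.67 and -0.20. As the mean of barcodes with at least 50 UMIs, fresh Clu and Mt1 were -1.53 and -1.56, and the 6 genes were 0.068, -1.0, -0.57, -0.11, -0.84 and -0.89 in the MeOH-fixed library, so 5 of the 6 were then lower in its failing barcodes. Without the failing barcode with most UMIs of the gene, MeOH-fixed Cst3 was 0.62.

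Genes past 2-fold numbered 1729 over all filtered cells, 247 in astrocytes and RGLs, and 2688 and 4127 for failing barcodes of the fresh and MeOH-fixed library. They were 795, 35, 921 and 1891 with at least 50 UMIs, and 5916, 6448, 8922 and 10295 with at least 1 UMI, and 1.5-fold gave 3810 and 524 for the first 2. Of the 3 most alike genes, Spearman's rho kept 1 for Apoe, 1 for Clu and 0 for Mt3, and log2(CPM + 1) kept 1 for Mt1 and 0 for Mt3.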
